A study of Mus musculus with 2 samples.

Results

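Long distal footprints were examined in DNase-seq of whole mouse ovary. A footprint is a short stretch inside open chromatin that DNase I cut less than its surroundings, as the authors called it. The members were chosen by width and place: autosomal footprints 30 bp or wider, overlapping one of 30 bp or wider in the other library, inside a peak of the longer peak list and over 2 kb from any protein-coding transcript start of GENCODE M21. The rule took in 1391 of 181762 footprints of replicate 1 and 1385 of 200993 of replicate 2. Of these, 22 and 16 were left unpaired. The long footprint they overlapped could lie outside a peak, too near a start or in another pair, and which of these held was not counted. The other 1369 in each library paired one to one, and these 1369 loci are described here. Both libraries came from ovary of female B6CASTF1/J mice, first-generation hybrids of C57BL/6 and CAST, aged 18 to 20 months. They form 1 group and are called biological replicates 1 and 2 in the labels, which list a biosample for each under a shared donor record. Nothing says whether the tissue came from 1 animal or more, and the ovary was not separated into cell types.

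Bound proteins shield DNA from DNase I, so a wide footprint can reflect a large protein, a multiprotein complex or neighbouring proteins. CTCF, the insulator and loop-anchor protein, reads DNA with an array of zinc fingers: central fingers contact a core motif and, at some sites, further fingers contact a separate upstream motif. Genes for tRNA are transcribed by RNA polymerase III, whose factor TFIIIC binds the internal A and B boxes and whose factor TFIIIB sits just upstream of the gene.

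The loci fell into 2 recognisable groups and a remainder. A CTCF motif was found at 849 loci (62.0%), a tRNA gene lay within 100 bp of 60 other loci (4.38%), and 460 loci (33.6%) had neither. The motif was scored with a weight matrix of 19 positions built from shorter footprints that are not members, in the 41-bp window centred on each locus. The score minimum was one that 1.02% of windows displaced by 100 bp to either side reached. Among 30329 shared distal footprints narrower than 30 bp in both libraries, 14.9% passed in the same window, and 0.422% lay within 100 bp of a tRNA gene. The CTCF core consensus without mismatch, a narrower criterion, was in 373 loci (27.2%), against 6.31% of the shorter footprints and 0.219% of displaced windows. No test was made between these sets, since there was 1 group and the members were chosen by width.

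The following loci with CTCF cores show how the wide footprints end at different places around the same core. Capitals mark the 12-base core and those of 6 upstream letters that were present. All are reference sequence of assembly GRCm38.p6 on the motif's strand, 5′ to 3′, over the union of the footprints of both libraries. The first 3 footprints started 15 bp or more upstream of the core in both libraries, and the next 4 in neither. The third, at Gm31371, held only 3 of the 6 upstream letters. The last one, in an intron of Col18a1, holds a pair of cores, which are in capitals there. For neither core do all 19 scored positions lie in the 41-bp window, so that locus is not among the 849.
Amhr2, chr15:102442671-102442716, minus strand: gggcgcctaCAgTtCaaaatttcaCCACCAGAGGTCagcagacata
Cd83, chr13:43864744-43864792, plus strand: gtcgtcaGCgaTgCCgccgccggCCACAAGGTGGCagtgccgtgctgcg
Gm31371, chr8:20122174-20122218, plus strand: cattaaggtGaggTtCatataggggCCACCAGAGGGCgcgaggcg
Dcn, chr10:97313126-97313156, minus strand: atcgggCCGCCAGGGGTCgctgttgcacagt
Gm42906, chr5:151368757-151368792, minus strand: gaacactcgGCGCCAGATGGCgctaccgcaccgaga
Greb1, chr12:16719092-16719126, plus strand: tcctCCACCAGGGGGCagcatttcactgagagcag
Myh11, chr16:14237496-14237529, plus strand: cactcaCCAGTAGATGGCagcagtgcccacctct
Col18a1, chr10:77130730-77130793, plus strand: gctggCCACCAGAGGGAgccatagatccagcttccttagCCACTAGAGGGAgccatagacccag

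The tRNA loci are shown on the strand of the tRNA gene. In the upstream loci capitals mark bases of the gene itself, and in the loci within a gene they mark the B box, searched as GTTCRA with R for A or G. The first pair flanks and covers the valine tRNA gene n-TVaac7, the next pair the asparagine tRNA gene n-TNgtt9, and the last lies in the alanine tRNA gene n-TAtgc9.
n-TVaac7 upstream, chr11:48856588-48856649, plus strand: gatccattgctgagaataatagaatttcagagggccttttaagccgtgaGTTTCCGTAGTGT
n-TVaac7 within, chr11:48856675-48856708, plus strand: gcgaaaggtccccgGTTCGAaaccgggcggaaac
n-TNgtt9 upstream, chr2:18587125-18587166, minus strand: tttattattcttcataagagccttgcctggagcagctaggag
n-TNgtt9 within, chr2:18587044-18587080, minus strand: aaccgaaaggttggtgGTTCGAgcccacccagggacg
n-TAtgc9 within, chr11:48834427-48834460, minus strand: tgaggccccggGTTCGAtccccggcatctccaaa

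Each library had a peak within 500 bp of a protein-coding transcript start of Foxl2, Nr5a1, Gata4, Inha, Amh and Star, genes of granulosa, theca and luteal cells. Of the 6 genes taken as markers of other tissues, Alb, Apoa2, Myod1, Cdx2 and Pou5f1 had none in either library, and Ins2 had 1 weak peak, of signal 0.328, in replicate 2. Peak signal is the authors' depth-scaled value and has no stated unit. The files give no read totals, so the depth behind a footprint is unknown. No source used here says how CAST alleles were mapped.

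Width chose the loci, so its values are a description. The median width was 35 bp in replicate 1 and 34 bp in replicate 2, with quartiles of 32 and 42 bp and of 31 and 38 bp. In replicate 1 the widths had a narrow mode with 677 footprints of 30 to 34 bp, a dip with 237 of 35 to 39 bp, and a broad mode with 250 of 40 to 44 bp and 173 of 45 to 49 bp. Replicate 2 had 759, 314, 211 and 65 footprints in the same classes. The CTCF share followed the modes in replicate 1: 66.5% at 30 to 34 bp, 47.3% at 35 to 39 bp, 64.0% at 40 to 44 bp, 69.4% at 45 to 49 bp and 21.9% of 32 footprints of 50 bp or more. In replicate 2 it was 67.6%, 53.8%, 60.7%, 55.4% and 15% of 20. Of the footprints of 50 bp or more, 8 of 32 in replicate 1 and 5 of 20 in replicate 2 lay at tRNA genes. The edges of a locus were close between the libraries: the median distance between their left edges, and between their right edges, was 1 bp. The overlap was 90.9% of the joint span at the median. At 59.9% of loci both edges lay within 3 bp of each other. At shorter shared footprints these values were 3 bp for both edges, 60% and 38.7%, but requiring both to be wide also restricts how far the edges can part.

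**Figure D1:**
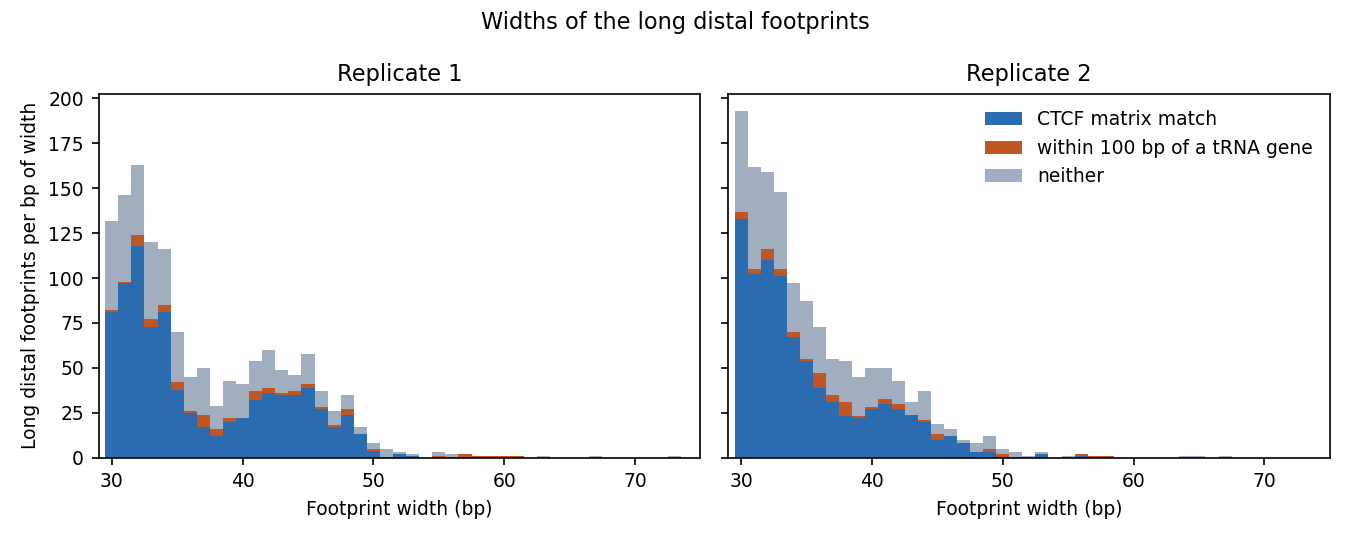
Number of long distal footprints per bp of width in each library (x axis, bp), stacked by class: CTCF matrix match (blue), within 100 bp of a tRNA gene (orange) and neither (grey). Replicate 1 has a mode at 30 to 34 bp and another at 40 to 49 bp, both mostly blue.

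The values on either side of the width limit were close. At the 33 loci of exactly 30 bp in both libraries, the median signal was 2.85 in replicate 1 and 1.59 in replicate 2, and 66.7% had a CTCF match. At the 52 shared footprints of exactly 29 bp in both, the signal was 2.48 in replicate 1 and 1.66 in replicate 2, and 73.1% had a match. On the distance limit, the 37 loci 2 to 2.5 kb from a start had a CTCF share of 54.1%, and the 49 shared long footprints 1.5 to 2 kb from one had 63.3%.

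The upstream edges of CTCF footprints gathered at 2 distances from the core, with fewer between. Counted from the first base of the core, with upstream negative, 451 of 849 upstream edges in replicate 1 (53.1%) lay at -8 to -4 and 282 (33.2%) at -24 to -18. Between these, 94 (11.1%) lay at -17 to -9, of which 26 were at -13 to -10. In replicate 2, 427 edges (50.3%) lay at -8 to -4, 220 (25.9%) at -24 to -18 and 153 (18%) at -17 to -9, of which 44 were at -13 to -10. The commonest upstream edge was -5 in both libraries. A footprint was called extended if it started 15 bp or more upstream of the core. By this measure 246 CTCF loci (29%) were extended in both libraries, 482 (56.8%) in neither, and 121 (14.3%) in 1 of them.

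**Figure D2:**
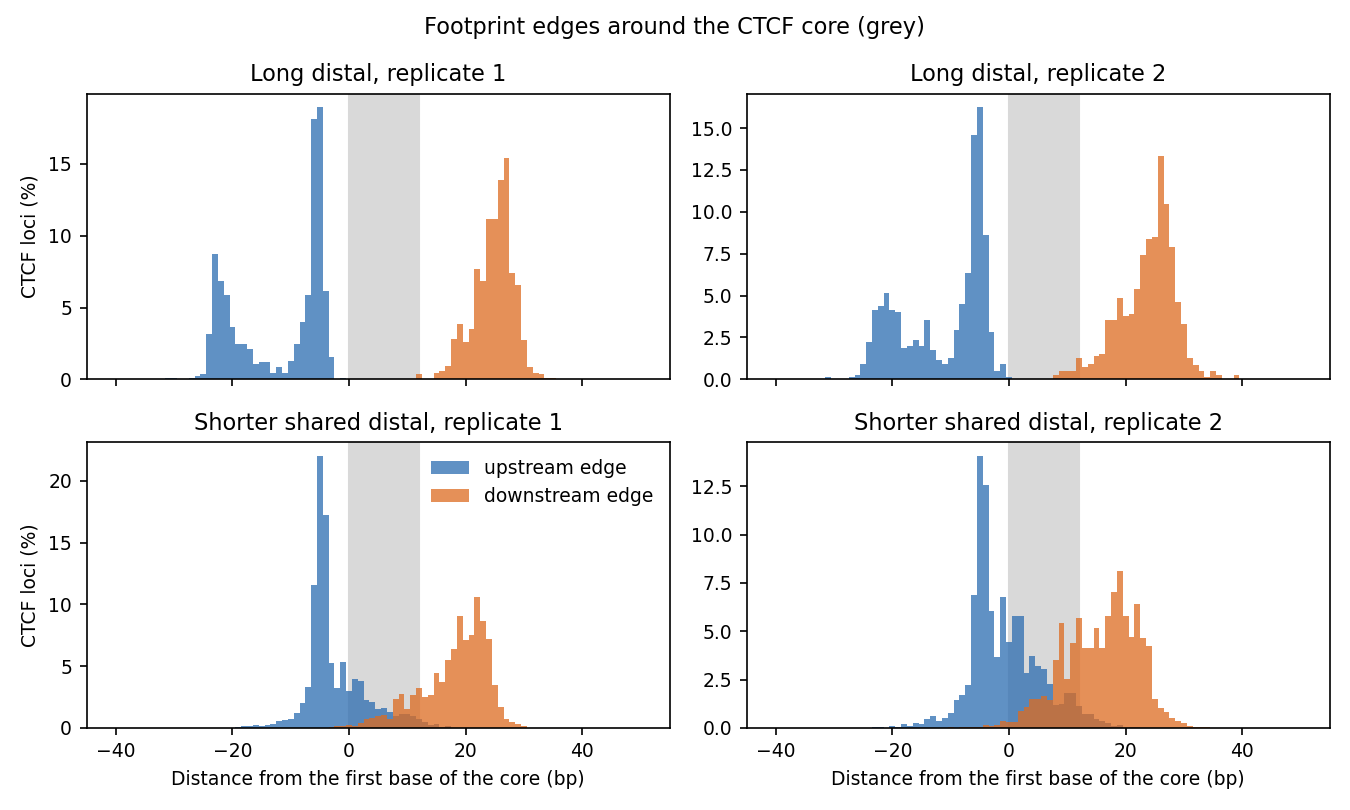
Percentage of CTCF loci (y axis) with the upstream edge (blue) or downstream edge (orange) of their footprint at each distance from the first base of the core (x axis, bp), for long distal footprints in the upper panels and shorter shared distal footprints in the lower panels, replicate 1 left and replicate 2 right; the grey band is the core. Upstream edges of long footprints gather near -5 and again near -22.

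Extended footprints were wider and ended a few bases earlier on the other side. Their median width was 43 bp in replicate 1 and 40 bp in replicate 2, against 32 bp in both libraries for those that were not extended. Their downstream edge lay at 22 and 19 bp after the start of the core, against 27 and 26 bp. The classes were defined by the upstream edge, and the members by a width of 30 bp or more. A footprint that starts nearer the core must therefore end further after it, so this contrast is a description.

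The sequence under the extension was compared with the upstream motif. Its letters were taken from 2447 long CTCF footprints of replicate 1 that are not members: the 6 positions with at least 0.12 bits between -20 and -7 were G at -16, C at -15, A at -14, T at -12, C at -10 and C at -9. Extended loci carried 4.43 of these 6 letters on average, and at least 4 of them at 200 of 246 loci (81.3%). Loci that were not extended carried 1.94, and at least 4 at 57 of 482 loci (11.8%). The loci extended in 1 library carried 3.98, and at least 4 at 82 of 121 (67.8%). Read the other way, 59.0% of the 339 loci with at least 4 letters were extended in both libraries, against 9.02% of those with fewer.

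Shorter CTCF footprints did not reach upstream even where the letters were present. Of 4531 such footprints, 884 (19.5%) held at least 4 letters, and 2 of these 884 were extended. Since an extended footprint that also covers the core is wide, its absence among footprints under 30 bp follows from their width. Their upstream edge lay at -4 in replicate 1 and -2 in replicate 2 at the median, and their downstream edge at 19 and 17.

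Among the named loci, the one nearest to Amhr2, the receptor gene for anti-Müllerian hormone, lay 2.65 kb from its start in intergenic sequence. Its footprint was 46 bp wide in replicate 1 and 41 bp in replicate 2, started at -24 and -22, and stood in a peak of signal 3.96 and 1.94. The locus at Cd83 had the strongest peak of the extended ones by mean rank over both libraries, with signals of 11.2 in replicate 1 and 16.5 in replicate 2, and a width of 49 bp in both. It lay 75 bp from a start of the lincRNA gene Gm33195. The locus at Gm31371 was 45 and 43 bp wide, with signals of 14.7 and 10.6, but its sequence is not unique: one of its 36-mers occurs 5 times in the reference.

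The loci that were not extended included 3 at ovary or stromal genes. At Dcn, which encodes the matrix proteoglycan decorin, the footprint was 31 bp in both libraries, started at -6 and had signals of 4.76 in replicate 1 and 4.03 in replicate 2, 166 kb from the start. In an intron of Greb1, an oestrogen-responsive gene, it was 30 and 34 bp with signals of 1.32 and 0.711, among the weakest of the 1369 by mean rank (position 1358). At Myh11, smooth muscle myosin heavy chain, it was 33 and 32 bp, started at -5 and -6 and had signals of 2.72 and 1.39. The Myh11 locus held 5 of the 6 upstream letters outside its footprint, which thus stopped short of them. The locus at Gm42906 had the strongest peak of all CTCF loci by mean rank over both libraries, with signals of 12.1 and 21.7, and widths of 36 and 35 bp.

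Of 44 genes on a list of ovarian cell-type and signalling genes, 5 were the nearest protein-coding gene of a locus: Amhr2, Dcn, Esr2, Greb1 and Myh11, with 6 loci in all. On the autosomes this was 5 of 42 listed genes (11.9%), against 1221 of 20733 protein-coding genes (5.89%), with no test. Of these 6 loci, 4 had a CTCF match, near the share of all loci. The second Greb1 locus, in an intron 7.65 kb from a start at chr12:16764888-16764926, had no match and a strong peak, with signals of 7.18 in replicate 1 and 10.4 in replicate 2. The Esr2 locus, 19.5 kb from a start of this oestrogen receptor gene, was 44 and 40 bp wide, with signals of 3.21 and 2.09, and 52.3% of its bases were masked as repeat.

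A pair of CTCF cores in tandem lay in one of the 5 widest footprints. The Col18a1 locus was 63 bp wide in replicate 1 and 64 bp in replicate 2, with signals of 5.61 and 2.88. Within the span of each locus and 5 bp on either side, 2 of 1369 loci held a pair of matches that did not overlap; the other was at Dctn6, with widths of 41 and 43 bp. Scored over the span instead of the 41-bp window, 859 loci (62.7%) held at least 1 match.

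The tRNA footprints lay at 2 fixed places on the gene. Of the 60 loci, 34 were centred upstream of the gene and 26 within it. The upstream ones started at -49 from the first base of the gene at the median in both libraries, and ended at -6.5 in replicate 1 and -10.5 in replicate 2. In each library 31 of the 34 started between -60 and -40. In replicate 1, 11 reached the first base of the gene or ran past it, and in replicate 2, 6. Those within the gene ran from 39 to 76 bp after its first base in replicate 1 and from 40 to 77 in replicate 2, and thus stopped near its 3′ end. All 26 had a B box in their window, and none of the 34 upstream loci had one. The B box is internal to the gene, so this contrast follows in part from the split by place. The B box letters are common: 1.87% of shorter footprints and 2.26% of windows displaced by 100 bp held them.

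**Figure D3:**
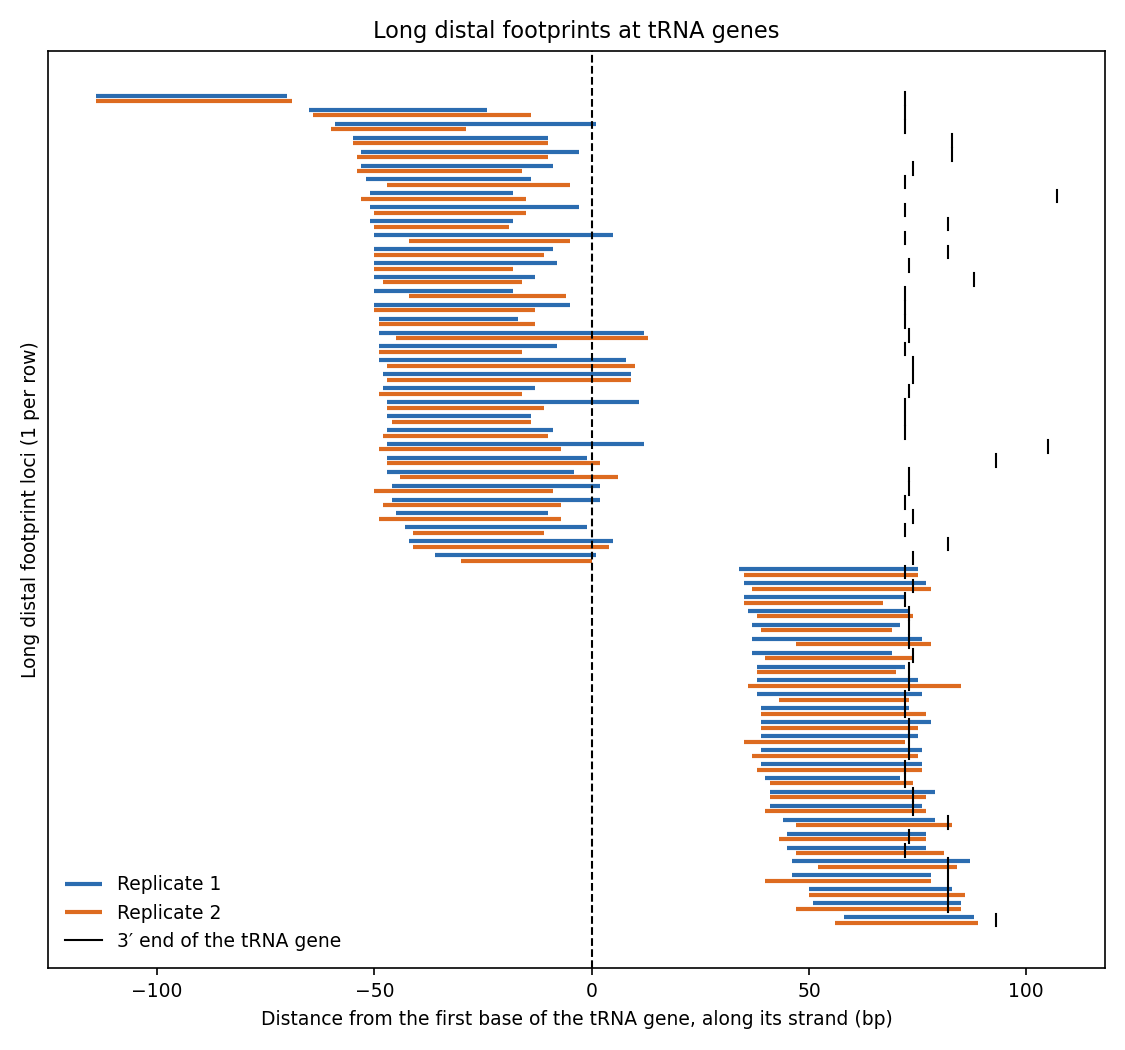
Position of each of the 60 long distal footprint loci near tRNA genes, 1 per row, in bp from the first base of the gene along its strand (x axis), in replicate 1 (blue) and replicate 2 (orange); black ticks are the 3′ ends of the genes. Most of the 34 upstream loci end near the dashed line at the gene start, and the 26 others begin 34 to 58 bp after it.

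The upstream footprints were the wider of the pair, with medians of 43.5 bp in replicate 1 and 38 bp in replicate 2, against 35.5 and 36 bp within genes. The peaks were also stronger at upstream loci, with median signals of 7.10 and 3.68, against 4.71 and 2.29 within genes. Of 386 RefSeq tRNA genes on autosomes, 334 lay over 2 kb from a start, and 128 of these were inside peaks in both libraries. Of these 128 genes, 115 had a shared distal footprint of any width within 100 bp, and 52 had a long one. A long footprint lay near 53 tRNA genes in all, and 7 of them had one upstream and one within, n-TVaac7, n-TNgtt9 and n-THgtg8, a histidine tRNA gene, among them. At n-THgtg8 the upstream footprint was 41 bp in replicate 1 and 50 bp in replicate 2, and the one within was 41 and 40 bp. Chromosome 11 held 20 of the 60 loci and chromosome 13 held 10. The share of all 386 tRNA genes on these chromosomes was not counted, so these numbers describe place only.

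Copies matter for these loci. A 36-mer that occurs elsewhere in the reference overlapped 39 of the 60, all 26 within genes and 13 of the 34 upstream. No tRNA locus had a CTCF match. The widest tRNA locus, upstream of n-TVaac7, was 61 and 58 bp wide with signals of 8.42 and 2.74, and the one within this gene was 34 and 32 bp wide in the same peak.

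The 34 motif families were searched on both strands in the 41-bp windows, and shares are given for the 520 loci without a CTCF match, the 60 tRNA loci included, against the 25798 shorter footprints without one. The CRE, TGACGTCA, which CREB and ATF proteins bind, was in 2.12% against 0.298%. NRF1, a regulator of mitochondrial and housekeeping genes, had 2.31% against 0.388%, and REST, a repressor of neuronal genes, 1.35% against 0.333%. The SP/KLF letters GGGGCGGGG were in 3.08% against 1.13%, and the NFI palindrome in 4.04% against 1.97%. These shares were higher at the wide footprints, with no test, and rest on 7 to 21 loci each.

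Some further families had higher shares on few loci. The CTCF upstream letters GCAGTNCC were in 20 loci (3.85%) against 0.872%, and NF-Y, CCAATNA, in 12 (2.31%) against 1.38%. The oestrogen response element was in 4 loci (0.769%) against 0.225%, and the SRF site in 2 (0.385%) against 0.167%. Others had lower or similar shares. The NR5A site CAAGGTCA, bound by steroidogenic factor 1, was in 2.69% against 2.86%. AP-1, TGANTCA, was in 2.69% against 3.66%. The GATA letters AGATAA were in 1 locus (0.192%) against 1.64%, and the SOX letters AACAAAG in none of the 1369 loci, against 0.587% of all 30329 shorter footprints. The E-box, CANNTG, which is short and common, was in 18.1% of the loci without a CTCF match, against 20.8% of such shorter footprints. Over all loci, CTCF loci included, it was in 22.2%, against 22.0% of all shorter ones and 16.5% of displaced windows. Of these 304 loci, 94 had no CTCF match. A CTCF core can itself spell CANNTG, as CAGATG in that of Gm42906.

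The following loci show these motifs in capitals, each that with the strongest peak of its family whose letters lie in the span. NFI and SP/KLF come from the rule for named loci, and the others were chosen after their values were seen.
NFI, Irf2bpl, chr12:86894485-86894518, minus strand: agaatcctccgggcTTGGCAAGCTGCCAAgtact
SP/KLF, Prss12, chr3:123508396-123508430, plus strand: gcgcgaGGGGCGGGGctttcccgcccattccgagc
REST, Xkr6, chr14:63681679-63681708, plus strand: cgcaggCAGCACCACGGACAGctcccacgg
CRE, Itpkb, chr1:180387630-180387663, minus strand: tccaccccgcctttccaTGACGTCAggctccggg
NRF1, Spen, chr4:141545892-141545937, plus strand: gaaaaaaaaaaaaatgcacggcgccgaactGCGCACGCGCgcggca
NR5A, Dlc1, chr8:36677907-36677941, plus strand: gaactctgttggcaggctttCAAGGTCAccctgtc

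The Irf2bpl locus was 34 bp wide in both libraries, with signals of 11.4 in replicate 1 and 15 in replicate 2. The Prss12 locus was also 34 bp in both, with 11.3 and 13.3, and overlapped a start of the noncoding gene Snhg8. The Xkr6 intron held a pair of long footprints with REST matches in 1 peak, 30 bp wide in both libraries and 34 and 32 bp, with signals of 9.75 and 5.24. The other 5 REST loci were nearest to Smim17, Chrm4, Wdr25, Prdm11 and Kcnd3, with signals from 7.33 and 4.31 at Smim17 to 1.85 and 0.711 at Kcnd3.

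The next loci are those with the strongest peaks. By mean rank over both libraries the first was at Tfap4, with signals of 18.1 in replicate 1 and 20.3 in replicate 2, and the next at Cct8l1, with 14.2 and 21.9. None of the 34 families had a match at either by the letters searched, which allow no mismatch. A variant of a searched site could thus be missed: the Cct8l1 sequence holds CCAAT, but not the NF-Y letters CCAATNA. Both are printed on the plus strand with no capitals.
Tfap4, chr16:4541886-4541927: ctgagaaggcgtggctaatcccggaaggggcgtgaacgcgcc
Cct8l1, chr5:25529709-25529745: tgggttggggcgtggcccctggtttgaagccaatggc

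The Tfap4 locus lay 70 bp from a start of a non-coding transcript of Srl, and the Cct8l1 locus 268 bp from one of the lincRNA gene 1700096K18Rik. More widely, 73 of the 460 loci (15.9%) had a transcript start that is not protein-coding within 500 bp, against 7.39% of the shorter footprints without a CTCF match and 6.12% of the CTCF loci. The rule removed loci near protein-coding starts only.

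Pairs of long footprints in a single peak were uncommon. The 1369 loci lay in 1341 peaks of replicate 1, of which 28 (2.09%) held a pair and none held more. The gap between the footprints of a pair was 35.5 bp at the median and 21 to 174 bp in range. In 22 of the 28 pairs neither had a CTCF match.

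Long footprints lay in strong peaks and near their middle. The median signal at the loci was 3.23 in replicate 1 and 1.76 in replicate 2, against 1.43 and 1.19 at shorter shared footprints. All shared distal footprints were ranked by mean rank of signal and divided into 10 classes of nearly equal size, class 1 the weakest. Of all 35151 shared distal footprints, 3.89% were long in both libraries. Among those with a CTCF match the share was 0.202% in class 1, 6.59% in class 5 and 32.3% in class 10. Among those without one it was 0% in class 1, 0.625% in class 5 and 7.98% in class 10. CTCF matches made up 79.7% of the long loci in class 5 and 34.7% in class 10. Over all classes, 11.2% of 7583 shared distal footprints with a match were long, against 1.89% of 27568 without one. Whether the number of cuts in a peak had a part in this was not tested.

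**Figure D4:**
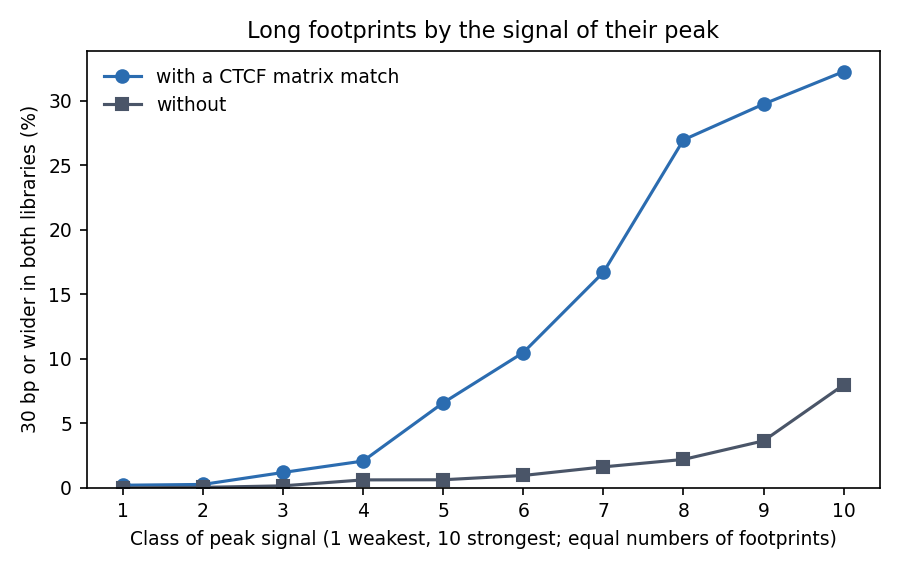
Percentage of shared distal footprints that were 30 bp or wider in both libraries (y axis), by class of peak signal, 1 the weakest and 10 the strongest (x axis), for footprints with a CTCF matrix match (blue circles) and without (grey squares). In class 10 the percentages were 32.3% and 7.98%.

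The footprint centre lay in the central 25% of the peak's length at 78.7% of loci in replicate 1 and 69.6% in replicate 2, against 50% and 46.7% of shorter ones. CTCF loci were the most central, with 82.7% and 74.9%, and tRNA loci less so, with 51.7% and 46.7%. The lowest deposited false discovery rate of the cut rate within a locus had a median −log10 of 23.7 in replicate 1 and 10.9 in replicate 2, against 8.64 and 6.47 at shorter footprints. At a wider footprint the lowest value is taken over more bases, and width chose the loci, so this contrast is a description.

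The libraries differed in signal by the class of locus. At CTCF loci the signal in replicate 2 was below that in replicate 1 at 98.8% of the 849, with a median log2 ratio of -0.99 (SD 0.40 over loci). At tRNA loci the median was -0.94, with 95% of 60 below. At the 460 other loci it was -0.25, with 65.9% below. Shorter footprints split the same way: -0.79 with a CTCF match and -0.04 without. With 2 libraries of 1 group, an animal, tissue composition, nuclear preparation or depth cannot be told apart as the source, and the ratio rests on the authors' scaling. The median was -1.05 at CTCF loci extended in both libraries, -1.05 at those extended in 1 and -0.94 at those extended in neither.

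**Figure D5:**
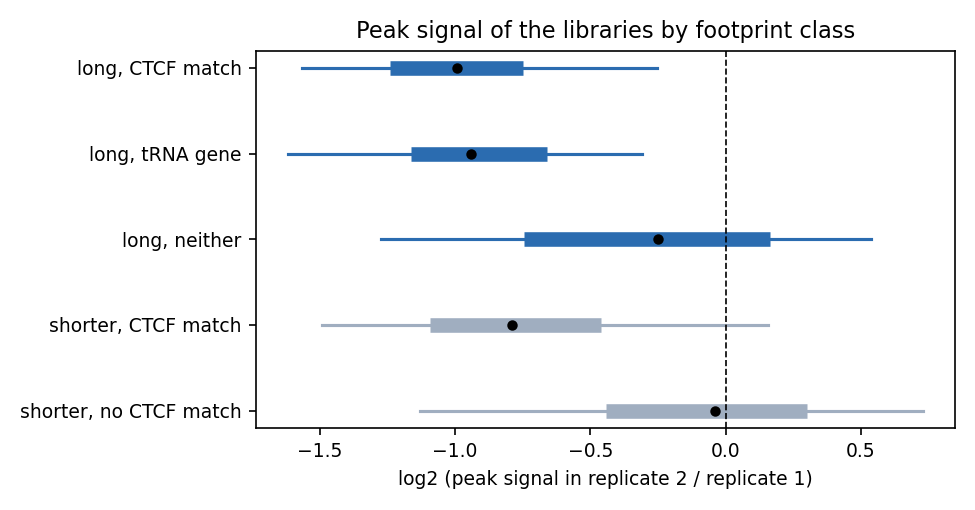
The log2 ratio of peak signal in replicate 2 over replicate 1 (x axis) for long distal footprints (blue) and shorter shared distal footprints (grey), by class; dots are medians, thick lines the 25th to 75th percentile and thin lines the 5th to 95th percentile. Long CTCF and tRNA loci lie near -1 and the other long loci near -0.25.

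The loci were spread over introns and intergenic sequence. Of the 1369, 704 (51.4%) were intergenic, 529 (38.6%) intronic and 136 (9.93%) exonic, against 42.6%, 48.2% and 9.26% of shorter footprints. The median distance to a protein-coding start was 18.4 kb, against 25.4 kb. The tRNA loci were intergenic in 52 of 60 cases. Median GC content of the span was 60% against 60.9%, and that of the 41-bp window 58.5% against 56.1%. The observed over expected CpG ratio in 201-bp windows was 0.317 against 0.256 at the median. It was 0.858 at tRNA loci.

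Repeat-masked bases touched 172 loci (12.6%), against 11.6% of shorter footprints. A 36-mer with another copy in the reference overlapped 103 loci (7.52%), against 3.19%. Of these 103, 39 were the tRNA loci, 20 had a CTCF match (2.36% of CTCF loci, against 2.25% of shorter CTCF footprints) and 44 were others (9.57% of 460). Reads from copies cannot be placed with certainty, so values at these loci are uncertain. Stretches of at least 20 bases were shared between members at 81 loci, in 38 families of 2 or 3.

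Peak1 and Gm21119 also had loci among the 5 widest. The Peak1 locus, in an intron, was 67 and 49 bp wide with signals of 3.24 and 1.34. It shared 36 bases, in capitals below, with the intronic locus nearest to Txndc11, which was 43 and 44 bp wide with signals of 21.7 and 12.1. The most frequent 36-mer of each occurs 5 times in the reference. Copies missing from the assembled chromosomes were not counted, so the number in the genome can be higher. The Gm21119 locus was 50 and 67 bp wide with signals of 7.90 and 7.16, and a 36-mer of it occurs 6 times. The highest signal in replicate 1 at any of the named loci, 39.3, against 12.8 in replicate 2, was also at a copied sequence, 21.6 kb from Igf2bp3, with a 36-mer present 4 times.
Peak1, chr9:56223580-56223646, plus strand: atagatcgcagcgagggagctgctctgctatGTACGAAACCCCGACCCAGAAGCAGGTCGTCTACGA
Txndc11, chr16:11144244-11144287, minus strand: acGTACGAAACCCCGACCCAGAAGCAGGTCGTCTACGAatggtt

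The distal loci were also set beside the 1985 shared long footprints within 2 kb of a protein-coding start, with no test. A CTCF match was in 62.0% of the distal loci, against 14.6% of those near starts, and the GC content of the window was 58.5% against 70.7% at the median. The SP/KLF letters were in 1.31% of the distal loci, against 16.5% near starts, and the NRF1 letters in 0.877% against 7.96%. Median signals were 3.23 in replicate 1 and 1.76 in replicate 2 at the distal loci, against 7.43 and 7.88 near starts. Of the loci with a CTCF match, 29% were extended upstream in both libraries at the distal loci, against 38.6% of 290 near starts. The upstream letters, at least 4 of 6, were less common near starts: 84 of 290 loci held them, against 339 of 849 distal loci. They were at 54 of the 112 extended loci near starts, against 200 of the 246 distal ones. Of loci with fewer letters, 28.2% were extended near starts, against 9.02% of distal ones. Of loci with at least 4, 64.3% were extended near starts, against 59.0%.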

How the data were processed

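DNase-seq of 2 libraries was analysed. Per the deposited text files, the authors called footprints and 2 peak lists for each library on mm10 from its own alignments. Which aligner and callers they used, and in which version, is not stated there. Peak signal is the authors' depth-scaled signal; the target depth is not stated. The deposited p-value label of footprints is constant at 0.01, and the deposited false discovery rates (p-value type) are listed below 0.05 only.

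Here, the longer peak list was used. Footprints were paired by the largest overlap, of at least 1 bp. Bases were read from GRCm38.p6, whose lower-case bases are masked repeats; tRNA genes came from RefSeq. Copies were counted over 36-mers overlapping a locus, on both strands of the 19 autosomes, X and Y. Matplotlib 3.10.9, Numba 0.67.0, SciPy 1.17.1, pandas 2.3.3 and NumPy 2.4.6 were used under Python 3.11.15. Joining, motif search and copy counts were tested on simulated data.

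The members, lists and motifs were chosen with earlier results of these data known. Named loci were the 5 widest, the 5 with the strongest peaks, the strongest of each of the 6 commonest motif families, and those nearest to a listed ovarian gene. With 1 group, no test was made. Alternatives were other widths, overlaps, distances, peak lists, transcript sets, windows and consensus sequences, and each library alone. Chromosomes X and Y were left out by the rule. Some loci that the rule for named loci takes in are not reported here.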

Additional observations from a re-analysis of the deposited data

How the results depend on the processing

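Some alternatives used 50% overlap, the shorter peak lists, a distance over 5 kb or every transcript of a protein-coding gene. They left 1365, 1315, 1170 and 1296 loci in that order, mostly the same loci as before. Every summary computed under them stayed within 1.5 times (counts), its 95% exact binomial interval (shares) or 1 SD between the libraries (medians). With so many loci in common this was likely beforehand, so it is a weak check. The SD rests on 2 libraries, and for the median signal in replicate 2 it allowed 0.719 to 2.80. With a width minimum of 25 bp there were 3887 loci, 10.7% touched masked repeats, 4.19% had a non-unique 36-mer, median GC was 61.1% and 42.1% were intronic. With 35 bp there were 453 loci, 19% had the CTCF core consensus, 11.7% a non-unique 36-mer, GC was 59.5% and 35.3% were intronic. Each library alone gave 2386 to 4590 loci, 20.8% to 31.6% with the core consensus, 5.27% to 6.08% with a non-unique 36-mer, GC of 59.1% to 60.6% and 41.4% to 41.6% in introns. The core consensus without mismatch was in 27.2% of loci, against 6.31% of shorter footprints; a stricter consensus gave 22.3%, and the weight matrix, chosen after seeing the data, 62.0%. By the matrix, the share was 47.6% for all long distal footprints of replicate 2, 72.0% for those of replicate 1, 56.8% at 25 bp and 54.3% at 35 bp. Masking of at least 50% of the span was found at 6.43% of loci, and non-unique 24-mers at 12.1%. The cause of these shifts was not tested. No paired analysis was possible because there was a single group. The depth is unknown and limits the footprints that could be called.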

Other observations

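Many long distal footprints of 1 library were not long in the other. Of 4590 in replicate 1, 3199 had no long partner in replicate 2, and 2568 of these overlapped a shorter footprint there, 132 lay in a peak without one, and 499 lay outside its peaks. Of 2386 in replicate 2, 1001 had no long partner in replicate 1, and 956, 31 and 14 fell into the same classes. A CTCF match was in 76.5% of the 3199 and in 29.6% of the 1001. Among the 3453 shared distal footprints that were long in 1 library, 63.8% had a CTCF match, and their median width was 31 bp in replicate 1 and 25 bp in replicate 2. A further 58 of these 3453 lay within 100 bp of a tRNA gene.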
